A study of Mus musculus with 56 samples.

Results

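The data described here are the cortical thymic epithelial cells (cTECs) of the late regenerative phase, set against those of mice that had not been pregnant. Members were chosen by their labels: the cTEC samples of days 16, 20, 24 and 28 after birth (D16, D20, D24 and D28, 1 mouse each, treated as 1 group of 4) and the 3 non-pregnant control (NPC) cTEC samples, 7 of the 56 samples of the series. All mice were B.6SJL-Ptprca Pep3b/BoyJ-CD45.1 (B6.SJL) females. Those of the late phase had been mated with BALB/cJ males and had lost their pups at birth, because nursing delays regrowth of the thymus, and the NPC females were matched to them for age. Thymi were digested with papain, DNase and collagenase IV, cells were enriched on anti-EpCAM beads and cTECs were sorted as EpCAM+ CD45- UEA1- cells, so that each library came from 1 mouse. Because no late day has more than 1 mouse, day and mouse cannot be told apart.

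cTECs are the stromal cells of the outer thymus that attract progenitors from the blood, commit them to the T cell fate through Notch ligands and select them on peptides made by their own proteasome and proteases. The transcription factor FOXN1 drives much of this programme, including the chemokine *Ccl25*, the Notch ligand *Dll4*, the proteasome subunit *Psmb11* and the serine protease *Prss16*. The thymus shrinks in pregnancy and grows back after birth, and the comparison asks what still separates cTECs from the non-pregnant state 16 to 28 days later.

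The 7 libraries held the defining genes of their labelled cell type. *Psmb11* stood between 49.0 and 231 FPKM (fragment counts scaled to transcript length and library size), *Prss16* between 877 and 3248 and *Ly75*, the cTEC surface marker CD205, between 52.7 and 222. Total expected counts ranged from 6718253 to 12974714 in NPC and from 8867222 to 40794211 in late libraries. The D20 library stood apart: of 10068 genes with a mean of at least 5 FPKM over all cTEC samples, 417 were listed at 0 in it, against 45 to 53 in the other late libraries, and it had counts for 13450 genes in all, against 19935 to 20403. The second NPC library had 142 such genes at 0, and the other NPC libraries 45 and 70. The libraries also fell apart by the mitochondrial share of counts, which was 1.16% to 1.41% in D16, D28 and the third NPC library and 2.68% to 3.16% in the other libraries.

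No gene was called different between late and NPC cTECs. Of 15845 genes tested with limma-voom, 0 passed a fold change of at least 2 at an adjusted p of 0.01 (0% of those tested), 0 passed at an adjusted p of 0.05 (0%), and the smallest adjusted p was 0.97. At an unadjusted p under 0.05, 152 genes had higher values in late cTECs (0.959%) and 140 lower values (0.884%). That threshold is expected to let through more genes than this by chance when no gene differs. edgeR's quasi-likelihood test called 0 genes at either threshold, with 267 at an unadjusted p under 0.05. DESeq2 called 1 predicted gene at an adjusted p of 0.01, and at 0.05 it called 3, of which only *Socs1* is a gene with a name of its own. The fit made 0 calls without D20, without the second NPC library and without both.

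A count of 0 does not show that the groups were alike, and the interval of each difference says how large a change the data could still hold. The 95% interval of the log2 fold change lay within 1 of 0, that is within a 2-fold change either way, for 4457 of the 15845 genes (28.1%), and for 4406 of the 10068 genes with a mean of at least 5 FPKM (43.8%). The median distance from the fold change to the end of its interval was 1.17 on the log2 scale over all genes and 0.80 over the genes with a mean of at least 5 FPKM. For most genes a 2-fold difference lay inside the interval that these 7 samples give.

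Late samples were no farther from NPC than NPC samples were from each other, with 1 exception. The median absolute difference of log2(FPKM + 0.5) from pairs of NPC samples was 0.42 at D16, 0.36 at D24 and 0.45 at D28, while each NPC sample differed from the other two by 0.44, 0.54 and 0.49. D20, the library with many genes at 0, stood at 0.76. The 3 samples of late pregnancy (D-2) stood at 0.42 to 0.53, those of D6 at 0.39 to 0.44 and those of D12 at 0.35 to 0.39, none of them above the highest NPC sample. The distance thus did not separate even late pregnancy from NPC, and it cannot show that late cTECs were like NPC.

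The genes of the FOXN1 programme differed among the late samples more than between the groups. *Foxn1* (chromosome 11, 78357577 to 78386558, GRCm38) was at 79.9, 181, 108 and 41.8 FPKM from D16 to D28 in the order of days, and at 186, 221 and 67.8 FPKM in the 3 NPC samples. The groups overlapped, with a log2 fold change of -0.72 and a 95% interval from -1.99 to 0.54. *Psmb11* (chromosome 14, 54621433 to 54629556), the cTEC-specific subunit of the thymoproteasome, was at 148, 130, 97.0 and 49.0 FPKM in the late samples and at 231, 227 and 73.8 FPKM in NPC. Its late values were ordered by day, from the highest at D16 to the lowest at D28, but the lowest NPC sample lay among them, and the log2 fold change was -0.76 (-1.91 to 0.39).

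**Figure D1:**
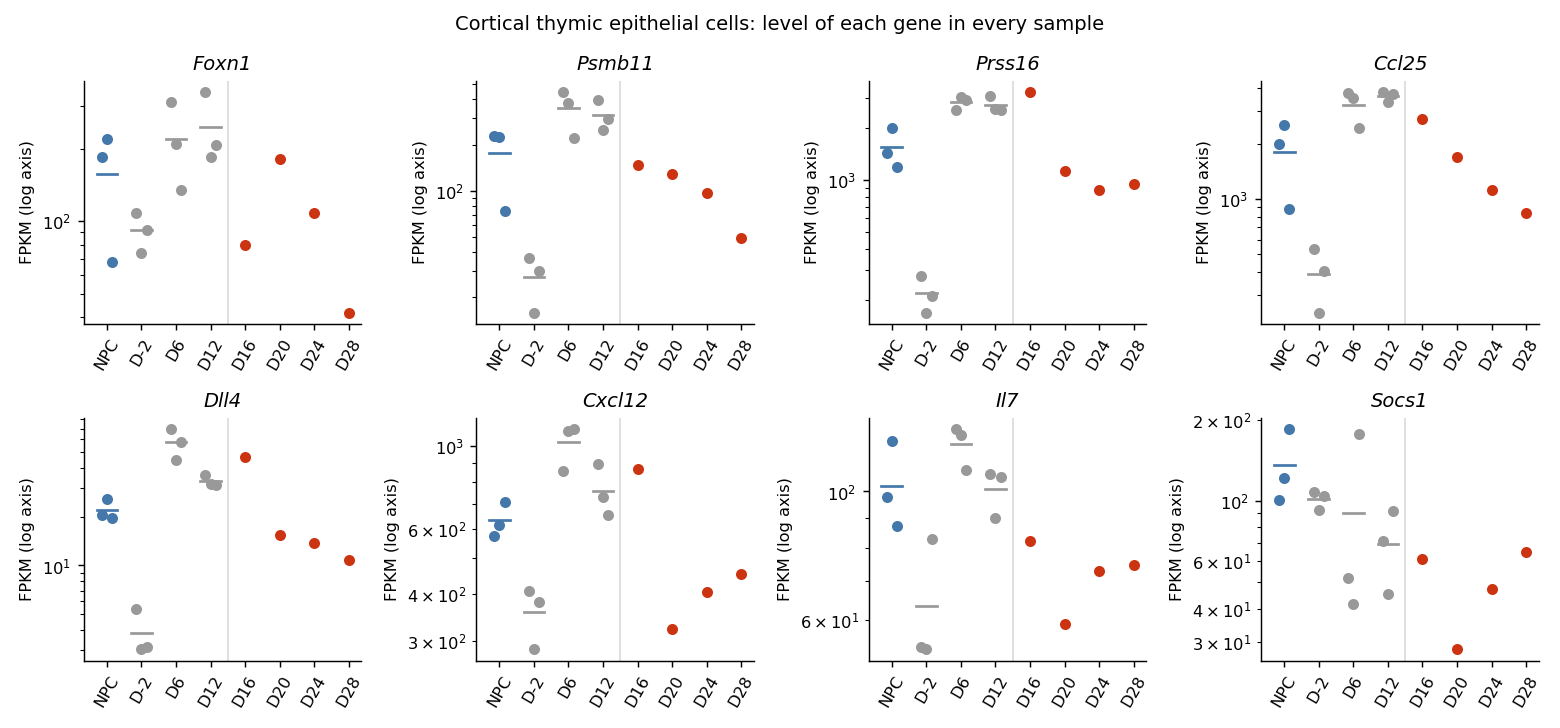
FPKM on a log axis (vertical) of 8 genes in each cTEC sample, by time point (horizontal), with NPC in blue, earlier time points in grey and the late samples in red. Horizontal bars are means of the 3 samples of a group. *Prss16* and *Dll4* at D16 lie at the levels of D6 and D12, while D20, D24 and D28 lie below all NPC samples, and all 4 late samples lie below NPC for *Il7* and *Socs1*.

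D16 and the later days lay on opposite sides of NPC for several of these genes. *Dll4*, the Notch ligand that commits progenitors to the T cell lineage, was at 46.5 FPKM at D16 and at 15.4, 13.7 and 10.8 FPKM at D20, D24 and D28, with NPC between at 20.4, 25.8 and 19.8 FPKM. For comparison, it was at 57.6 ± 12.4 FPKM at D6 and 33.1 ± 2.81 FPKM at D12 (SD, n = 3 each). *Prss16*, the serine protease that shapes the peptides on MHC class II, was at 3248 FPKM at D16 and at 1126, 877 and 954 FPKM on the later days, with NPC at 1436, 2020 and 1194 FPKM. *Cxcl12*, which positions early thymocytes in the cortex, was at 867 FPKM at D16 and at 323, 405 and 455 FPKM thereafter, against 571, 614 and 707 FPKM in NPC. *Cd83*, which protects MHC class II from turnover, went from 248 FPKM at D16 to 106, 54.2 and 50.9 FPKM, with NPC at 102, 142 and 69.1 FPKM. *Ccl25*, the chemokine that draws progenitors in, was at 2709, 1699, 1118 and 843 FPKM, and NPC spanned 882 to 2513 FPKM.

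Of the 13 genes in the list of *Foxn1* and the genes followed with it in the study, 0 were called, 12 had lower fitted values in late cTECs, and the median log2 fold change was -0.31, against -0.06 over all genes tested. With D16 left out the median was -0.63, and without the second NPC library it was -0.12. With sample quality weights, which let a library that departs from its group count for less, the median was 0.034, against 0.052 over all genes, so the sign of the list turned, and with D12 counted as late it was 0.018. For 8 of the 13 (61.5%), D16 was above each of D20, D24 and D28, which held for 22.9% of all genes tested. For 4 of the 13, *Dll4*, *Prss16*, *Cxcl12* and *Il7*, all samples from D20 to D28 were below all NPC samples, which held for 2.77% of all genes. The study reported the genes of this list in these same samples, and the list was drawn up with earlier results of these data known. Its direction is therefore not independent evidence. The split of D16 from the later days was noticed in these values and was not tested. Within the libraries of high mitochondrial share (D20 and D24 against the first and second NPC samples) the median difference of the list was -0.64 on the scale of log2(FPKM + 0.5). Within those of low share, with 1 NPC library against D16 and D28, it was 0.19, so the sign turned. Neither comparison allows much to be read from it. Of the libraries of low share, D16 and D28 lay on opposite sides of NPC, at median differences of 0.47 and -0.55 from the NPC mean. Those of high share include D20 and the second NPC library, which had the most expressed genes listed at 0. *Foxn1* itself had its 3 lowest values in the 3 libraries of low mitochondrial share. With that share as a term in the fit, its log2 fold change was -0.54 and not called.

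Among the late samples, RNA of thymocytes was also highest at D16. The summed FPKM of 20 thymocyte genes was 301 at D16, then 166, 99.3 and 81.0 on the later days, and 259, 109 and 50.4 in NPC. Its part in the D16 values was not tested. In such bulk libraries fewer cells of a type and less RNA per cell cannot be told apart, so a lower level of a cTEC gene may stand for either.

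The MHC class II genes differed little between the groups in fitted value. *H2-Aa*, a class II chain, was at 2454, 2831, 2881 and 2077 FPKM in late samples and at 2774, 3349 and 2574 FPKM in NPC, and its interval, -0.68 to 0.24, did not reach a 2-fold change. The intervals of *H2-Ab1* (-0.86 to 0.11) and *H2-Eb1* (-0.51 to 0.23) did not either. Among 16 genes of class II presentation and lysosomal processing the median log2 fold change was -0.13, and among 15 genes of class I processing it was -0.04, with 0 called in each. *Krt8* and *Krt18*, the keratins of the cortex, had log2 fold changes of -0.26 (-1.03 to 0.52) and -0.31 (-1.27 to 0.66).

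Short sequences upstream of 3 of these genes are shown because D16 was the highest of their late samples and their windows hold GACGC, the core motif known for FOXN1. RefSeq windows of 300 bases (250 before to 50 after the transcript start) on GRCm38.p6 matched 9 of the 13 genes, with 10 windows, and 4 of the 10 held GACGC on either strand (read as GCGTC on the other strand), which is true of 27.2% of all 32851 windows. Capitals mark the matches. *Psmb11* (chromosome 14, + strand) has them from 239 and 62 bases before the start, *Cxcl12* (chromosome 6, + strand) from 62 bases before it, and the upstream of 2 windows of *Ccl25* (chromosome 8, + strand) from 56 bases before and 13 bases after it. D16 was also the highest late sample for *Dll4* and *Ctsl*, whose windows held 0 matches. The remaining window with a match, at *Kitl*, is not shown. A match of 5 letters is a description and not a binding site.
Psmb11, chr14:54625060-54625359: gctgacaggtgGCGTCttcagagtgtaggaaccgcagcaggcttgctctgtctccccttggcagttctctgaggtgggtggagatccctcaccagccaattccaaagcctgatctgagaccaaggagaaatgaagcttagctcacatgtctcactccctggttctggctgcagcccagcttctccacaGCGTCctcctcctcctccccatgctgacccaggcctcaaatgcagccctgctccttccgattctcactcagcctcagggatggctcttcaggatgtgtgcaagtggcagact
Cxcl12, chr6:117168285-117168584: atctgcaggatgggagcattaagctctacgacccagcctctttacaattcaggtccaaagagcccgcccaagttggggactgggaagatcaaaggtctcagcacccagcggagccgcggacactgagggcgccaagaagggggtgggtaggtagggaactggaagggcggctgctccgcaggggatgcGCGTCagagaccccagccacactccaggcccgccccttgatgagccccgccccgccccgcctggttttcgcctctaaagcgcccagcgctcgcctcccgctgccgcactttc
Ccl25, chr8:4324960-4325259: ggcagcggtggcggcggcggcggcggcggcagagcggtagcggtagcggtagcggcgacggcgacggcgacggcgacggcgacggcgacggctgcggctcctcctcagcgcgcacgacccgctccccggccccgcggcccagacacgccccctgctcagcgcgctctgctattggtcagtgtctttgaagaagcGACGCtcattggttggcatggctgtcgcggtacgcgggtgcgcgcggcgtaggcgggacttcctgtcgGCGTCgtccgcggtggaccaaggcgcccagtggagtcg

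The genes that D6 and D-2 separate gave a second view of the same axis, from 6 samples that belong to neither group. Between D-2 and D6, 107 genes were called higher at D6 (0.675% of those tested), led by *Dll4*, *Prss16* and *Psmb11*, and 106 were called lower (0.669%), led by *Serpina3n*, an acute-phase protease inhibitor. The 107 genes had a median difference from the NPC mean, in log2(FPKM + 0.5), of 0.64 at D16, then -0.14, -0.44 and -0.38 on the 3 later days. Each NPC sample differed from the other NPC samples by -0.11, 0.33 and -0.30. D16 lay above all NPC samples and above the 3 samples of D12, which stood at 0.33 to 0.49, and D24 and D28 lay slightly below the lowest NPC sample.

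**Figure D2:**
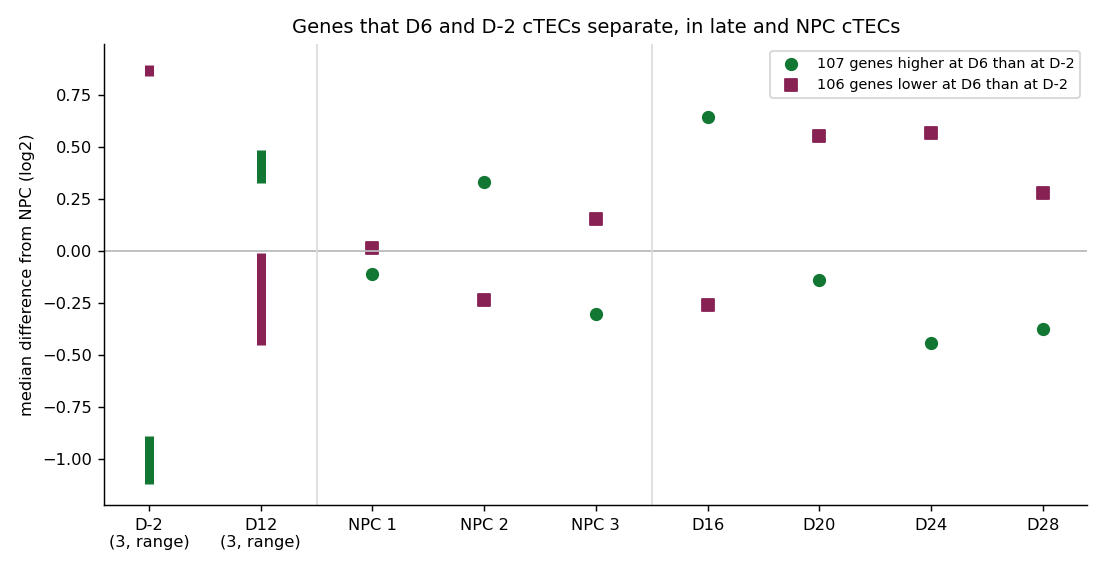
Median difference from NPC in log2(FPKM + 0.5) (vertical) of the 107 genes called higher (green circles) and the 106 called lower (purple squares) at D6 than at D-2, in each NPC and late sample (horizontal), with the range of the 3 samples of D-2 and of D12 as bars. NPC samples are compared with the mean of the other NPC samples. D16 lies beyond all NPC samples on the D12 side for both sets, and D24 and D28 lie beyond them on the D-2 side, while D20 does so only for the genes called lower.

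The 106 genes mirrored this. Their median difference was -0.26 at D16, then 0.55, 0.57 and 0.28 on the later days, against 0.02, -0.23 and 0.15 in NPC and 0.84 to 0.89 at D-2. In the 7-sample fit 81 of the 106 had higher values in late cTECs, with a median log2 fold change of 0.32, and 90 of the 107 had lower values, with a median of -0.23. Without both D20 and the second NPC library these medians were 0.07 and 0.01. They were 0.22 and -0.14 without D20, 0.21 and -0.10 without the second NPC library, and 0.48 and -0.43 without D16. Their sizes thus depended on which of these libraries were kept. Among both sets, *Fst*, which encodes the activin antagonist follistatin, was at 26.6, 62.4, 48.5 and 38.2 FPKM in late samples and at 25.9, 19.9 and 24.7 FPKM in NPC. *Pigr*, the transporter of polymeric immunoglobulins, was at 23.3, 40.9 and 36.1 FPKM at D16, D20 and D28, with a higher value at D24, and at 11.8, 27.5 and 7.74 FPKM in NPC. Neither was called, and both were chosen after their values were seen.

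The lowest p belonged to *Socs1* (chromosome 16, 10782240 to 10785536), which encodes the feedback inhibitor of JAK-STAT signalling by interferons and cytokines. It was at 61.0, 28.2, 47.1 and 64.6 FPKM in late cTECs and at 101, 122 and 185 FPKM in NPC, so that all late samples were below all NPC samples. The log2 fold change was -1.55 ± 0.32 (SE, 95% interval -2.29 to -0.82), with an unadjusted p of 0.00101 and an adjusted p of 0.97 in limma-voom. Over the 27 fits tried its log2 fold change was between -1.75 and -1.14. It was past an adjusted p of 0.05 in 2 of them, with 0.037 in DESeq2 and 0.020 in a limma-voom fit of all 28 cTEC samples with mitochondrial share as a term, and the limma-voom fit of the 7 samples with that term gave 0.37. At D12 *Socs1* stood at 69.5 ± 23.3 FPKM and at D-2 at 102 ± 8.01 FPKM (SD, n = 3 each), and D6 was spread widely, at 90.0 ± 75.3 FPKM. In mTECs, the medullary counterparts, it was at 50.9, 52.6, 29.2 and 44.6 FPKM in late samples and at 70.8, 92.9 and 88.1 FPKM in NPC, again with no overlap. The labels do not say whether mTEC and cTEC libraries came from the same mice, so this may not be an independent repeat.

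All 4 late samples lay above all NPC samples for 410 of the 15845 genes (2.59%) and below them for 210 (1.33%). Neither share is above what orderings of 4 and 3 samples would give by chance, so lack of overlap does not set a gene apart. By the fixed rule the 15 genes of smallest p in each direction are named here, all of them not called, among those with no overlap and a mean of at least 5 FPKM in the higher group.

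Below NPC, after *Socs1*, came *Shisa2*, a regulator of Wnt and FGF receptor maturation, at 77.8, 61.6, 72.4 and 71.8 FPKM against 98.5, 99.3 and 115 FPKM. Its log2 fold change was -0.63 ± 0.17. *Slc29a1*, an equilibrative nucleoside transporter, was at 159, 113, 163 and 146 FPKM against 216, 210 and 241 FPKM, a log2 fold change of -0.62. *Il7* (chromosome 3, 7569994 to 7613760), the cytokine on which early thymocytes depend, was at 82.0, 59.1, 73.1 and 74.9 FPKM against 98.0, 122 and 87.1 FPKM, a log2 fold change of -0.59 (-1.05 to -0.13). *Tradd*, an adaptor of TNF receptor signalling, was at 8.23, 5.08, 7.92 and 6.38 FPKM against 12.3, 21.3 and 14.1 FPKM.

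The other 10 genes of this direction had log2 fold changes between -4.21 and -0.49. They were the netrin receptor *Unc5a*, the matrix metalloproteinase *Mmp9*, the chondroitin sulfotransferase *Chst11*, the transcription factor *Dmrt3*, *Dhrs7b*, *Tmem256*, *Efs*, *Phlda1*, *Rasl10a* and *Eno1b*. *Eno1b* is a near copy of *Eno1*, and its count depends on how reads were split between the copies. *Rasl10a* was listed at 0 at D20.

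Above NPC, the smallest p belonged to *Atp7a*, a copper-transporting ATPase, at 7.81, 7.26, 6.71 and 8.09 FPKM against 4.19, 2.90 and 3.76 FPKM, a log2 fold change of 1.03 (0.30 to 1.76). *Hdc*, the enzyme that makes histamine, was at 17.9, 26.3, 12.2 and 13.3 FPKM against 9.38, 2.57 and 8.72 FPKM. *Trf*, which encodes the iron carrier transferrin, was at 70.0, 78.1, 45.2 and 122 FPKM against 23.2, 16.2 and 37.0 FPKM. *Myh14*, a non-muscle myosin heavy chain, was at 16.5, 31.1, 21.4 and 19.9 FPKM against 8.54, 9.23 and 9.71 FPKM, with a narrow spread in NPC.

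**Figure D3:**
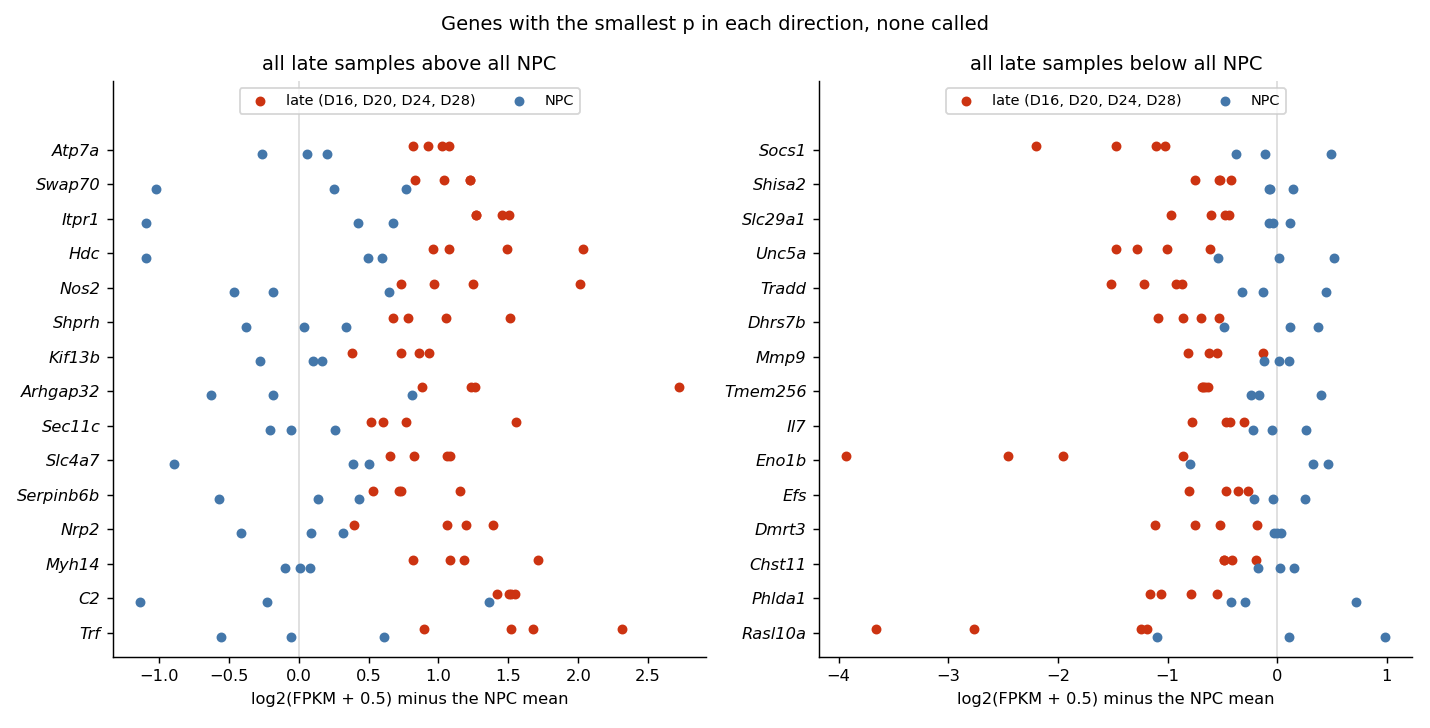
Difference of log2(FPKM + 0.5) from the NPC mean (horizontal) of the 15 genes of smallest p in each direction (vertical), with the 4 late samples in red and the 3 NPC samples in blue. None was called; *Socs1*, *Shisa2* and *Tradd* show gaps between the groups, while for *Mmp9* and *C2* the nearest samples almost touch.

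The other 11 genes of this direction had log2 fold changes between 0.69 and 1.91. They were *Nos2*, the inducible nitric oxide synthase, *C2*, a component of the classical complement pathway, *Itpr1*, a calcium channel of the endoplasmic reticulum, *Nrp2*, a semaphorin and VEGF co-receptor, *Swap70*, *Kif13b*, *Arhgap32*, *Sec11c*, *Slc4a7*, *Serpinb6b* and *Shprh*. *C2* and *Trf* overlap predicted coding genes on the same strand, with which they may share reads. The second NPC library was the lowest of the 7 for 13 of the 15 genes of this direction, and without it only 10 genes in all had higher late values at an unadjusted p under 0.05.

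Immediate-early genes, which are induced within minutes of stimulation and also by tissue digestion, were lower in late cTECs in fitted value for all 16 of 16 listed genes, with 0 called and 0 at an unadjusted p under 0.05. Their median log2 fold change was -0.57, against -0.06 over all genes, and with sample quality weights it was -0.17, against 0.052 over all genes. Without D20 it was -0.27, against 0.064 over all genes. *Fos* was at 2520, 997, 1167 and 3282 FPKM in late samples and at 2174, 1926 and 4011 FPKM in NPC, and *Junb* at 907, 430, 562 and 934 FPKM against 741, 989 and 1831 FPKM. The groups overlapped in both genes. The summed FPKM of the list tracked the mitochondrial share, at 11680 and 14460 in the late and 19530 in the NPC library of low share, and at 4317 and 5598 in the late and 8353 and 8812 in the NPC libraries of high share. For 15 of the 16 genes late values were lower within each kind of library, with median differences of -0.65 in those of low share, where NPC has 1 library, and -0.77 in those of high share. With mitochondrial share as a term, 0 of the 16 genes were called, with the log2 fold change of *Junb* at -0.94.

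**Figure D4:**
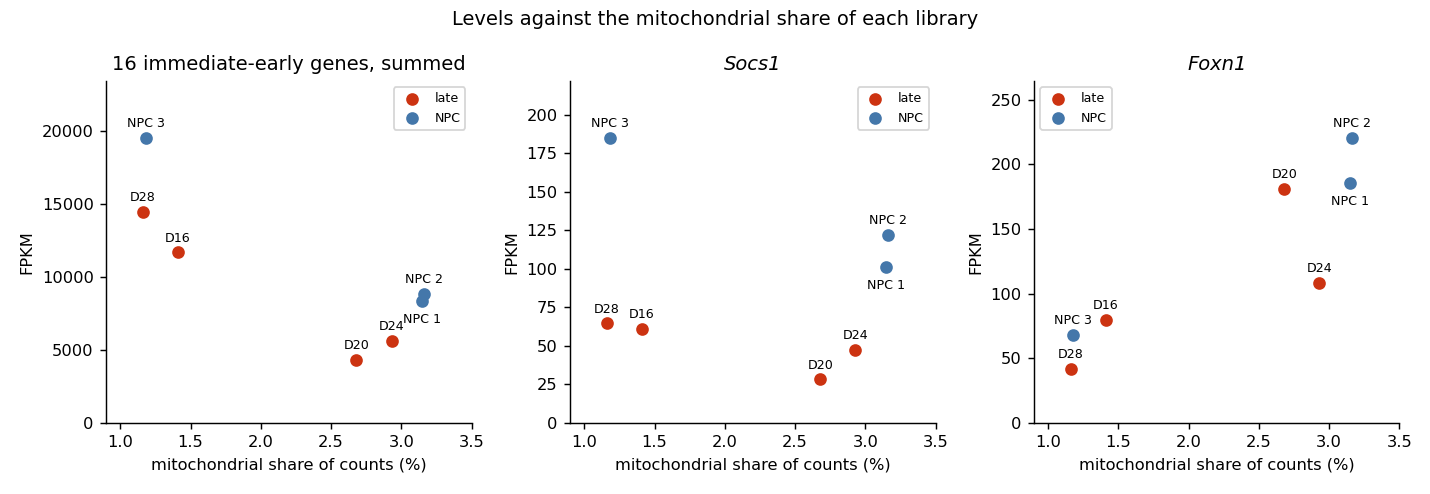
FPKM (vertical) of 16 immediate-early genes summed, of *Socs1* and of *Foxn1*, against the mitochondrial share of counts in percent (horizontal), 1 point per library, late in red and NPC in blue. Libraries of low share have high immediate-early and low *Foxn1* values, and late libraries lie below NPC libraries of like share for the immediate-early sum and for *Socs1*.

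Of the NF-kB and TNF receptor family, 3 genes had an unadjusted p under 0.05. *Nfkbia*, the inhibitor IkB-alpha, was at 304, 502, 509 and 276 FPKM in late samples and at 663, 928 and 417 FPKM in NPC, a log2 fold change of -0.87 (-1.63 to -0.11). *Relb*, a subunit of the non-canonical pathway, had a log2 fold change of -0.55 (-1.08 to -0.01), and *Traf1* was higher, at 12.3, 37.6, 11.9 and 12.6 FPKM against 6.98, 0.47 and 10.9 FPKM. *Traf1* differed by 3.01 within libraries of high mitochondrial share, which include D20 and the second NPC library. Within those of low share, with 1 NPC library, it differed by 0.19. Of the 13 genes of this family 0 were called, 4 had higher and 9 lower values, and the median was -0.11, which turned to 0.15 without D20 and to 0.35 with sample quality weights. Of 11 genes of the Notch pathway 0 were called, 4 had higher and 7 lower values, and the median was -0.25. *Heyl*, a target of the receptors, was at 7.43, 6.34, 4.71 and 7.70 FPKM against 12.3, 17.5 and 7.12 FPKM, with overlap. It differed by -1.35 within libraries of high mitochondrial share and by 0.082 within those of low share, with 1 NPC library.

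Genes of medullary cells and of thymic tuft and other mimetic cells were among those with higher values, although UEA1+ cells had been sorted away. *Cd80*, a costimulatory ligand of mature mTECs, was at 6.07, 10.1, 6.15 and 6.05 FPKM in late cTECs and at 2.93, 0.43 and 2.02 FPKM in NPC. *Aire*, the regulator of self-antigen expression, was at 18.9, 11.4, 9.55 and 15.7 FPKM against 7.60, 1.15 and 16.5 FPKM, with overlap. Of 15 medullary genes tested 10 had higher values (median 0.33), and of 14 tuft and mimetic genes 11 had (median 0.73), with 0 called in each. *Dclk1* and *Plcb2*, genes of tuft cells, had log2 fold changes of 0.79 and 3.16 at an unadjusted p under 0.05. Of the 5 medullary and the 3 tuft and mimetic genes with lower values, the lowest were *Tnfrsf11b* at -2.45 and *Ccl20* at -1.85. Without the second NPC library the medians of the 2 lists were -0.0078 and 0.28. The median differences within the libraries of high mitochondrial share were 0.58 and 1.18, and within those of low share, with 1 NPC library, -0.12 and -0.31. *Dclk1* and *Plcb2* differed by 1.44 and 2.41 within the former and by -0.48 and -0.30 within the latter. The tuft and mimetic genes summed to 383 to 3267 FPKM in late and 207 to 974 FPKM in NPC samples, with overlap. The summed FPKM of the medullary list was 4603 to 7513 in late and 4528 to 6275 in NPC samples, so that the groups overlapped.

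Acute-phase and complement genes had higher late values for 12 of the 13 tested, with a median log2 fold change of 0.67 and 0 called. *C4b*, a component of the classical pathway, was at 4.63, 9.92, 4.83 and 9.20 FPKM against 1.99, 2.27 and 2.35 FPKM in NPC. *Steap4*, a metalloreductase induced in inflammation, was at 34.2, 58.7, 42.7 and 51.9 FPKM against 33.5, 20.1 and 35.3 FPKM, with overlap at D16. D16 was below each of the later days for 8 of the 13 genes, and the median without D20 and the second NPC library was 0.31. The median difference within libraries of low mitochondrial share was 0.04, against 0.96 within those of high share. Among 12 genes of the basement membrane 11 had higher values (median 0.33), again with 0 called and with median differences of 0.48 within libraries of high and -0.0030 within those of low mitochondrial share, and *Col4a1*, a collagen IV chain, was at 133, 256, 195 and 173 FPKM against 126, 119 and 130 FPKM. The 12 fibroblast genes summed to 789 FPKM at D16 and to 1113 to 1226 FPKM on the later days, against 745 to 1062 FPKM in NPC, and their part in these values was not tested.

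**Figure D5:**
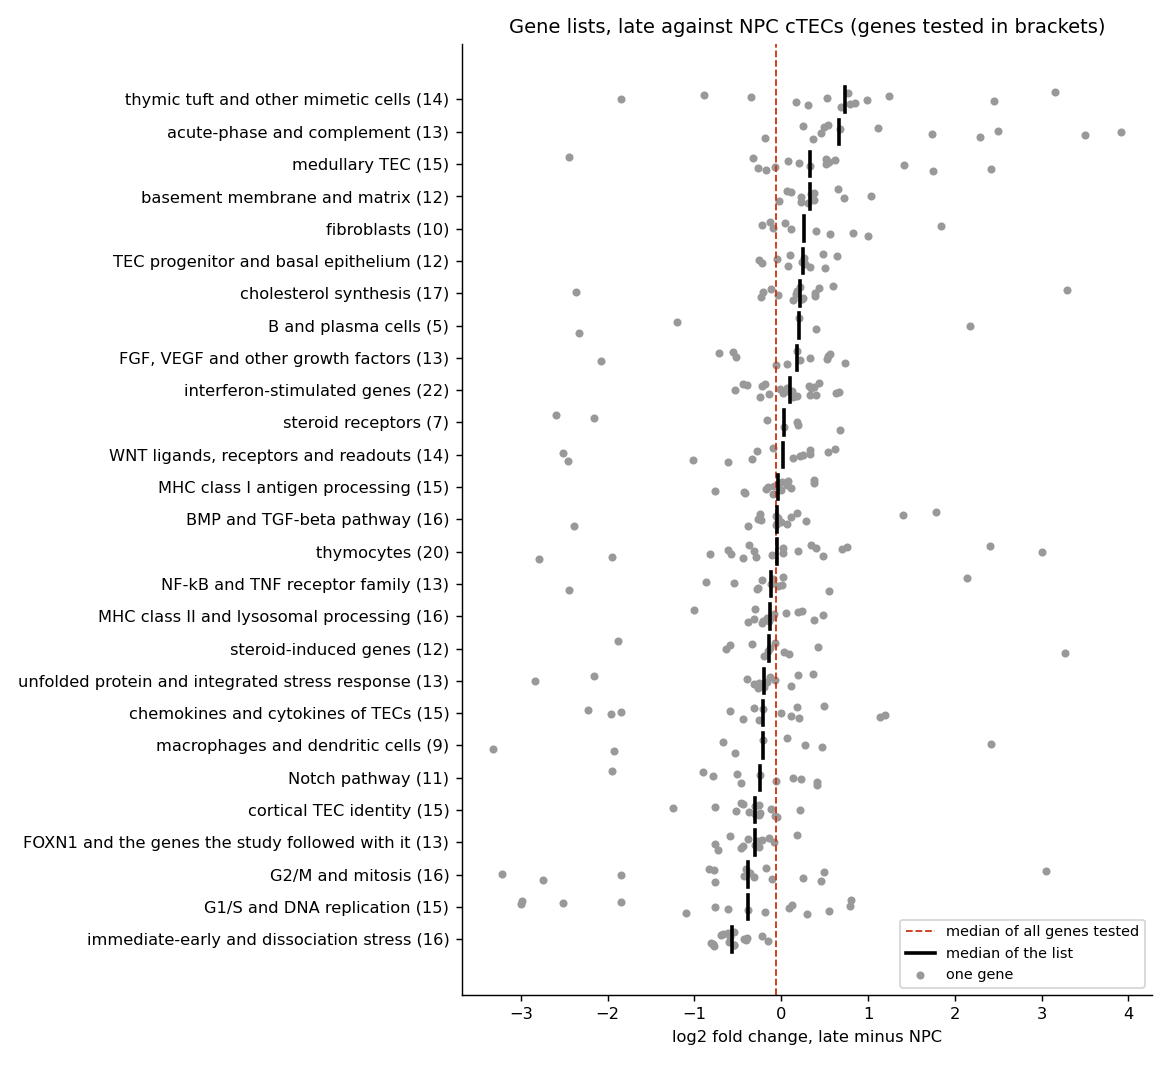
Log2 fold change of late against NPC cTECs (horizontal) of each tested gene (grey points) in 27 lists with at least 5 tested genes (vertical), with the median of each list as a black bar and the median of all genes tested as a dashed line. No gene was called; the list medians run from -0.57 for immediate-early genes to 0.73 for tuft and mimetic genes.

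Genes of the cell cycle had lower values in most cases, which rested on D20. Of 16 genes of G2/M and mitosis 12 had lower late values (median -0.38), and of 15 genes of the G1/S transition 9 had (median -0.39), but without D20, in which many genes were listed at 0, the medians were -0.05 and 0.01. With sample quality weights the G2/M median was 0.13. Interferon-stimulated genes had a median of 0.10 over 22 genes, cholesterol synthesis genes 0.22 over 17, steroid-induced genes -0.14 over 12 (-0.058 without D20 and 0.12 with sample quality weights) and steroid receptors 0.03 over 7. WNT genes had a median of 0.02 over 14 and genes of the BMP and TGF-beta pathway -0.04 over 16, and without D20 these were 0.23 and 0.11. The 15 chemokines and cytokines tested had a median of -0.21, which turned to 0.16 without D20 and to 0.047 with sample quality weights, with *Ccl19* higher, at 35.1, 60.4, 57.3 and 51.8 FPKM against 30.7, 13.5 and 49.2 FPKM. Of the 15 genes of cortical identity 14 had lower values (median -0.31, and 0.034 with sample quality weights). The median difference was -0.57 within libraries of high mitochondrial share and 0.13 within those of low share. *Psmb11*, *Prss16*, *Ccl25*, *Cxcl12* and *Dll4* are also in the *Foxn1* list, so the 2 lists are not separate results. The chemokine list likewise shares *Ccl25*, *Cxcl12*, *Il7* and *Kitl* with the *Foxn1* list. *Hoxa3*, a transcription factor of the thymic primordium, was below NPC in all late samples. It was at 5.58, 2.04, 5.82 and 6.84 FPKM against 7.75, 11.6 and 11.4 FPKM. In each of these lists 0 genes were called.

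No gene was called for a different change from NPC in cTECs and mTECs. Over 18394 genes, the interaction of cell type and group gave 0 calls in limma-voom (0%), with 501 genes at an unadjusted p under 0.05, 0 calls in edgeR and 12 in DESeq2 at an adjusted p of 0.01. Of the 5 genes of smallest adjusted p, 4 were low in cTECs, with all samples of *Unc45b*, *Col6a3*, *Kcnj6* and *Pid1* at or below 2.40 FPKM. The remaining gene, *Ehf*, an epithelial ETS factor, was at 17.0, 28.9, 31.6 and 25.4 FPKM in late and at 9.59, 14.1 and 22.9 FPKM in NPC cTECs, while in mTECs it was at 38.8 to 68.7 FPKM in late and 52.0 to 66.4 FPKM in NPC samples. The difference of its log2 fold changes was 1.33 ± 0.40, with an adjusted p of 1.00.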

How the data were processed

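Poly-A RNA of sorted cTECs was sequenced by the authors from stranded libraries. Per the labels, base calls were made with bcl2fastq 2.20, reads were trimmed with Trimmomatic 0.35, aligned to GRCm38 with STAR 2.5.1b and quantified with RSEM 1.2.28. For each sample the authors deposited the expected count of 50600 genes, an estimated count that is not normalized. In the TPM values, also deposited by the authors, gene length is divided out and each sample has the same total. The deposited FPKM values divide out gene length and the fragments of the sample. The annotation release is not given in the sources used here. Symbols and coordinates came from GENCODE M21, which matched 50376 identifiers.

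The rounded expected counts were scaled by TMM in edgeR 4.0.16 and fitted by voom in limma 3.58.1 under R 4.3.3, with 1 mean for the 4 late and 1 for the 3 NPC samples. Genes with a mean of at least 0.5 FPKM over the 28 cTEC samples were tested. Genes were called at an adjusted p (Benjamini-Hochberg) of 0.01 or less if the groups differed by 2-fold or more. The interaction with cell type was fitted on 14 samples and on the genes that passed the filter in cTECs or mTECs. The script was tested on simulated counts. A required recovery of changed genes was set only for a version of low spread. That test does not measure what the fit can find at the spread of these samples. edgeR's quasi-likelihood test, DESeq2 1.42.0, FPKM and TPM in limma-trend, other scalings, filters and groups, and leaving out each sample were tried as alternatives. Each library came from 1 mouse. p-values measure the spread between these samples, and intervals over counts cover no other error.

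The genes named by rule were those called, with a mean of at least 5 FPKM in the higher group and no overlap, filled up to 15 per direction from the genes of smallest p because none were called. The 5 genes of smallest adjusted p in the interaction and members of 30 lists of pathway and cell type genes were also named. Predicted genes without a symbol of their own were passed over (1 higher and 7 lower). Members and lists were chosen with earlier results of these data known. No test of a gene list was run; lists are described by counts and medians.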

Additional observations from a re-analysis of the deposited data

Results flagged for a closer look

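In 88 groups of the 4 late values, for the genes and lists described and 2 measures of the libraries, 6 held a sample far from the other three. The critical value used here is passed in about 1 of 20 groups by chance. At D16, *Dll4* was at 46.5 FPKM against 10.8 to 15.4 FPKM on the later days, and *Prss16* at 3248 FPKM against 877 to 1126 FPKM. At D20, *Arhgap32* was at 87.5 FPKM against 24.1 to 31.5 FPKM, *Traf1* at 37.6 FPKM against 11.9 to 12.6 FPKM and *Cd80* at 10.1 FPKM against 6.05 to 6.15 FPKM. D20 was also the library with 417 expressed genes listed at 0, against 45 to 53 in the other late libraries. With 1 mouse per day, day and mouse cannot be told apart in any of these.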

How the results depend on the processing

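The count of genes called between late and NPC cTECs was 0 under all alternatives run except 2. DESeq2 called 1 gene at an adjusted p of 0.01 and 3 at 0.05, and all 28 cTEC samples with mitochondrial share as a term called 1 at 0.05 (*Socs1*). The interaction with cell type gave 0 calls except in DESeq2, which called 12. Leaving out each sample in turn gave 0 calls, while the genes at an unadjusted p under 0.05 ranged from 55 (without the second NPC library) to 797 (without D20), against 292. The interaction with a replicate block by mouse, which paired 6 cTEC and mTEC samples by the number in their titles, gave 0 calls. The labels do not say that such samples came from the same mouse, and their deviations from the group means correlated at -0.13 to 0.33. Late and NPC cTECs themselves could not be blocked, since each late sample is numbered 1.

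Of the 56 genes whose fold changes were followed under each alternative, 0 passed an adjusted p of 0.01, and 27 values turned sign while 1476 kept it. Those among them named by rule had been picked for no overlap between the groups in these samples. Leaving out a sample could hardly turn their sign, so the 1476 does not measure how stable the directions are. The 27 values that turned were in 8 genes of the *Foxn1* list, and the causes were not tested. With D12 counted as late the values were 0.037 for *Dll4*, 0.39 for *Ccl25*, 0.24 for *Prss16*, 0.018 for *Psmb11*, 0.25 for *Cd83*, 0.0089 for *H2-Aa* and 0.0016 for *H2-Eb1*. With sample quality weights they were 0.13 for *Dll4*, 0.034 for *Ccl25*, 0.047 for *Cxcl12*, 0.26 for *Prss16* and 0.34 for *Cd83*, and with those weights over all 28 cTEC samples 0.16, 0.071, 0.093, 0.33 and 0.40. Without D20 and the second NPC library they were 0.062 for *Ccl25*, 0.060 for *Prss16* and 0.067 for *Cd83*. *Cd83* was at 0.039 in edgeR and 0.041 in DESeq2. Leaving out each sample gave -0.74 to 0.071 for *Ccl25*, -0.68 to 0.044 for *Cd83* and -0.71 to -0.063 for *Prss16*. The 5 alternatives that treat mitochondrial share, quality weights over 28 samples, both sparse libraries or depth, and the list medians with quality weights or D12, were chosen after seeing the data.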

Other observations

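Of 12 genes of TEC progenitors and basal epithelium, 0 were called and 9 had higher fitted values in late than in NPC cTECs, with a median log2 fold change of 0.25, which was 0.0071 with sample quality weights. *Itga6*, the alpha6 integrin chain of basal cells, had a mean of 178 FPKM in late and 110 FPKM in NPC samples, a log2 fold change of 0.64 ± 0.31 (SE), with overlap. *Ly6a*, which encodes SCA-1, had means of 846 and 649 FPKM, also with overlap. Of 13 growth factor genes and receptors tested 0 were called and 8 had higher values, with a median of 0.19, which turned to -0.13 with D12 counted as late. *Vegfa*, the endothelial growth factor, had means of 38.8 and 23.6 FPKM and a log2 fold change of 0.73 (95% interval -0.25 to 1.72). *Egfr* had a log2 fold change of 0.54 and *Igf1r*, the IGF1 receptor, one of -0.52, and the groups overlapped in both. Of 13 genes of the unfolded protein and integrated stress response 0 were called and 10 had lower values, with a median of -0.19. That median rested on D20: it was -0.035 without it, 0.056 without it and the second NPC library, and 0.14 with sample quality weights.

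Genes of other cell types, apart from the thymocytes and fibroblasts described above, were at low summed levels, and the groups overlapped in each list. The 15 macrophage and dendritic cell genes summed to 9.17 to 50.9 FPKM in late and 16.1 to 42.3 FPKM in NPC samples. The 10 endothelial genes summed to 4.60 to 6.89 FPKM and 2.86 to 8.37 FPKM, and the 6 red blood cell genes to 0.35 to 4.25 FPKM and 0 to 2.74 FPKM. The 10 B and plasma cell genes ranged from 27.9 to 85.9 FPKM in late samples, the highest at D16, and from 14.1 to 130 FPKM in NPC, the highest in the first NPC library, as for the thymocyte genes. The 8 adipocyte genes, of which 2 passed the filter, summed to 40.3 to 83.2 FPKM and 53.8 to 134 FPKM. With 2 to 9 genes tested per list, 0 were called.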
